A study of Homo sapiens with 4 samples.

Results

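The long arm of chromosome 18 (18q) was described as the windows of the 5hmC-Seq table that lie on chromosome 18 from 18.5 Mb onwards in hg19. It held 8425 of the 956365 windows of the table, that is 0.881%, a share that also counts windows off the autosomes. It makes up 2.21% of the autosomal windows without an undetermined base. It was compared with the short arm of the same chromosome (18p), which held 4768 windows of the table. The libraries came from FADU cells, a line from a squamous carcinoma of the human hypopharynx, with 1 library for each of 4 conditions. These were a scrambled control and a TET1 knockdown (TET1-si), each under normoxia and under hypoxia of 1% oxygen, for 18 h in the control and 19 h in the knockdown. All conditions thus share 1 tumour line. The titles call the assay hMeDIP-seq, the labels describe an antibody against 5-methylcytidine, and the methods describe chemical labelling of 5hmC, so that the mark behind a window is uncertain. The table gives windows of 500 bp and 4 columns of values whose names belong to no sample. These values were not used, so that no condition is compared here and each result below concerns only which windows the table holds, here called listed.

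18q carries genes that restrain or shape epithelial growth, and its loss is frequent in head and neck and in colorectal carcinomas. SMAD4 is the shared partner of the receptor-activated SMAD proteins in the TGF-β pathway, DCC is a receptor for netrin-1, and BCL2 keeps cells from apoptosis. The arm also holds the desmosomal cadherins, which join epithelial cells, a cluster of serpin protease inhibitors, and CDH2, which encodes N-cadherin, a mesenchymal marker. 5hmC is made from 5mC by TET enzymes, mostly at CpG sites. Genomic copy number and the mark itself both set how many reads an enriched window collects, and no input library was used here, so that they cannot be told apart.

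The following sequences of GRCh37 are examples of windows of 18q that are and are not in the table. They were picked by different rules and are not to be compared with each other. CpG sites are in capitals. The first is the middle of the window with the most CpG sites among unique windows outside UTRs within 50 kb of SMAD4, in intron 1 of SMAD4 (chr18:48557101-48557400, plus strand). The window has 51 CpG sites and a GC content of 63.2%, and was not in the table. Its predicted share was 32.4%, so that most matching autosomal windows were not listed either.
SMAD4: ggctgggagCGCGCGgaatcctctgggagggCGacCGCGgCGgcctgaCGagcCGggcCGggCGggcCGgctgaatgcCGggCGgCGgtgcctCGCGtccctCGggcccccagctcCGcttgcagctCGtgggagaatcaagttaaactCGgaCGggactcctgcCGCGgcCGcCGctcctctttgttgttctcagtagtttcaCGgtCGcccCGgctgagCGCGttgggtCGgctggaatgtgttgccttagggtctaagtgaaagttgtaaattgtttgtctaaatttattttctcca
The second is the 300 bp upstream of the start of DCC (chr18:49866267-49866566, plus strand), with 14 CpG sites. Neither window that it touches was in the table. The 300 bp upstream of GATA6 (23 CpG sites) and of BCL2 (34 sites) touched no listed window either. Those of DSG2 (30 sites) touched 2 windows, of which 1 was listed.
DCC: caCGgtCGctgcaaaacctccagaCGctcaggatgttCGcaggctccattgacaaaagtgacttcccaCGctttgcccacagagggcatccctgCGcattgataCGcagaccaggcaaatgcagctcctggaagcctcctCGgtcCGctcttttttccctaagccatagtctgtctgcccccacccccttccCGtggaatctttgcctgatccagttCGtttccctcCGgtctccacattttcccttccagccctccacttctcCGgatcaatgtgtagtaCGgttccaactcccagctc
The window of the table nearest to the start of BCL2 in its promoter has its middle at chr18:60988101-60988400 (minus strand), with 17 CpG sites.
BCL2: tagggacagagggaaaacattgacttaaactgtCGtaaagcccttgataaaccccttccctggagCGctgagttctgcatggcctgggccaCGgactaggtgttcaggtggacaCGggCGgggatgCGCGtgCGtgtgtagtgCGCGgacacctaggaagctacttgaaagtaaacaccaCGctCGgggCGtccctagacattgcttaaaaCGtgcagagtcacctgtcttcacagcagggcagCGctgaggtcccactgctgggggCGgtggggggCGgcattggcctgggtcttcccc
The promoters of GATA6 (chr18:19748101-19748400, plus strand) and DSG2 (chr18:29077601-29077900, plus strand) had windows in the table with 14 and 23 CpG sites in the part shown.
GATA6: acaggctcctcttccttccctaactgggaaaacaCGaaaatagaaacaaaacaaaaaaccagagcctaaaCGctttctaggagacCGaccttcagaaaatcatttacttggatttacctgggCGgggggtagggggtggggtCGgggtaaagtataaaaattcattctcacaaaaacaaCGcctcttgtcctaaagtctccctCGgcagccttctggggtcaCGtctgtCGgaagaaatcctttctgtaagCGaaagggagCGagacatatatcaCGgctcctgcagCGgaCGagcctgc
DSG2: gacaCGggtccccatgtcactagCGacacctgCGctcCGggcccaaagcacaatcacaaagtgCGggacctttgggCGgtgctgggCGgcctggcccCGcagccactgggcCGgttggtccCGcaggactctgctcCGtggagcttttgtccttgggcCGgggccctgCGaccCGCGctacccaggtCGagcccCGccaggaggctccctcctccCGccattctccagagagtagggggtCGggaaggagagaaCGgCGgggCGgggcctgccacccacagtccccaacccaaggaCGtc
The last window of the table before SMAD4 (chr18:48055101-48055400) and the next one after it (chr18:50250101-50250400, in DCC) each have 3 CpG sites in the part shown on the plus strand.
before SMAD4: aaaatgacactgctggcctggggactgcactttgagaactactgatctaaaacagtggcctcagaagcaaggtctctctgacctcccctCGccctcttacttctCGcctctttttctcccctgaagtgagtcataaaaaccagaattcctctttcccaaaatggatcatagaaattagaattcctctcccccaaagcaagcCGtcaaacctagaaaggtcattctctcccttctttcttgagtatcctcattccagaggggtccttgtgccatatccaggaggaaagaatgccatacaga
after SMAD4: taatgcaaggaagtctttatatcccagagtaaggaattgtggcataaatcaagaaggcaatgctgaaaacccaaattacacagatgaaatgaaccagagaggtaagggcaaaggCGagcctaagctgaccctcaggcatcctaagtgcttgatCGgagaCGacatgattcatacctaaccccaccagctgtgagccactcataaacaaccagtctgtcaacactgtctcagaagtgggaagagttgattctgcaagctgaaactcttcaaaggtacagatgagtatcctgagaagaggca
Over their full 500 bp the windows present on both sides of SMAD4 had 5 and 3 CpG sites.

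The arm was sparsely listed. Of its 118503 windows without an undetermined base, 8424 (7.11%, 95% Wilson interval 6.96 to 7.26) were in the table, against 17.6% of all autosomal windows. 18q is slightly poorer in CpG than the autosomes, with a mean of 4.36 against 4.97 sites per window and a GC content of 39.5% against 41.0%. A predicted share was therefore taken from the autosomal windows that match each window in CpG number and in GC content. It was 14.8%, so that the ratio of listed to predicted windows was 0.479. On 18p the listed share was 15.5% and the predicted share 17.8%, a ratio of 0.871, and the ratio of 18q to 18p was 0.550. Among the 39 autosome arms 18q had the lowest ratio, next to 4q with 0.481, and these neighbours in the order differed by less than the interval of either. With the prediction from CpG number alone 18q was the arm with rank 2, after 4q. The intervals count each window as a separate observation, which adjacent windows are not, and no test between arms was made.

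**Figure D1:**
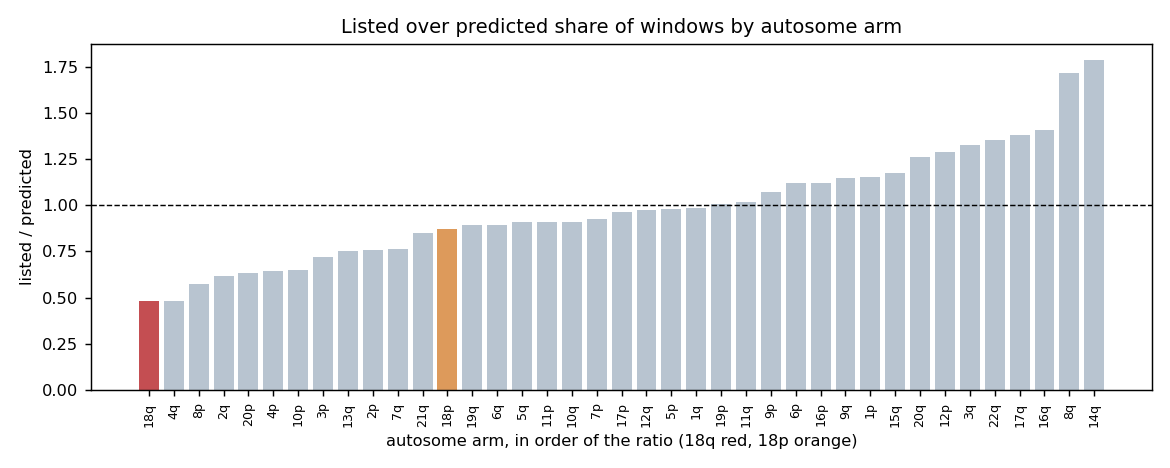
Ratio of listed to predicted windows for each of the 39 autosome arms compared, in increasing order. The bar of 18q (red) stands at 0.479, that of 18p (orange) at 0.871, and the dashed line marks a ratio of 1.

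18q and 4q had nearly the same ratio, while the bins along them differed in range. Over bins of 1 Mb the ratio on 18q ranged from 0 to 1.58 with a median of 0.358, and on 4q from 0.111 to 1.12 with a median of 0.401. On 18q 38 of 60 bins (63.3%) had a ratio under 0.5, against 29.0% of the 2715 autosomal bins, and on 4q 91 of 139 (65.5%). A ratio under 0.1 was found in 10 of the 60 bins of 18q (16.7%), in 0 of the 139 bins of 4q and in 4.01% of autosomal bins. On 18p 2 of 16 bins (12.5%) had a ratio under 0.1 and 6 a ratio under 0.5, with a range of 0.0715 to 1.84 and a median of 0.749. The short arm of chromosome 8, next in the order of ratios, had a layout like that of 18q, with 9 of 44 bins under 0.1, a range of 0 to 2.33 and a median of 0.365. Of the 16 autosomal bins with no window in the table, 4 lie on 18q. The arm also had bins above the prediction, 6 of 60, against 36.5% of autosomal bins.

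**Figure D2:**
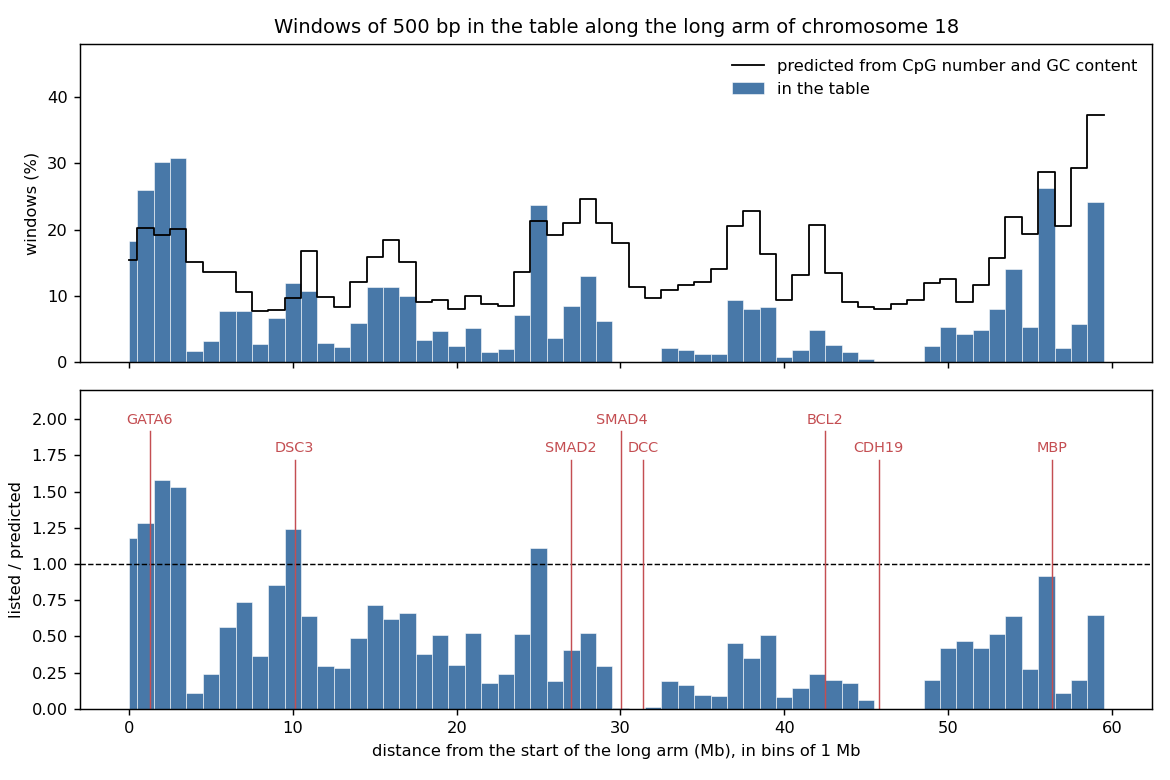
Share of windows in the table (upper panel, bars, in percent) with the predicted share (black line), and their ratio (lower panel), in bins of 1 Mb by distance from the start of the long arm. Red lines mark the start sites of 8 genes; the bins that hold SMAD4 and CDH19 are at or near 0, and the first bins of the arm, with GATA6, lie above 1.

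The first 3.5 Mb of the arm was listed above its prediction. The edge at 22 Mb was set after the listing was seen, where the listing falls. The contrast with the rest of the arm is therefore in part fixed by this choice. Between the centromere and 22 Mb, 1921 of 6978 windows were in the table (27.5%, predicted 19.2%), a ratio of 1.43. This part holds 5.89% of the windows of the arm and 22.8% of its listed windows. GATA6, a transcription factor of endoderm, had 28 listed windows of 66 in its gene body, with 15.6 predicted. NPC1, which moves cholesterol out of late endosomes, had 77 of 161 with 42.3 predicted. LAMA3, the α3 chain of the epithelial laminin of basement membranes, had 122 of 533 with 101.8 predicted. Of the 19 protein-coding genes that start in this part, 18 had a listed window in the promoter, the 3000 bp upstream of the start (94.7%, 95% interval 75.4 to 99.1), against 75.9% of autosomal genes.

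The listing fell within a few 100 kb near 22 Mb. From 21 to 22 Mb, 616 of 2000 windows were in the table, a ratio of 1.53, and in the next 1 Mb 33 of 2000, a ratio of 0.109. In steps of 100 kb the number of listed windows was 40 from 21900001, 26 from 22000001, 3 from 22100001, 1 from 22200001 and 0 from 22300001, of 200 windows each. ZNF521, a zinc-finger transcription factor of progenitor cells, lies behind this step and had 1 listed window of 580 with 75.2 predicted. Over the same 2 bins of 1 Mb the listed share went from 30.8% to 1.65% and the predicted share from 20.1% to 15.1%. Windows were called unique when all the stretches of 50 bases sampled from them had a single match in the genome. Unique windows made up 80.9% of the 1 Mb before the step and 89.5% of the 1 Mb after it.

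The SMAD4 locus was in one of the emptiest parts of the autosomes. No window of the table lies within the SMAD4 gene (113 windows, 13.9 predicted) or within 50 kb of it (313 windows, 56.9 predicted). The window that holds the start of SMAD4 has 64 CpG sites and was absent, with a predicted share of 17.4%, so that most such windows of the autosomes were absent too. The nearest windows of the table lie 501 kb before and 1693 kb after this start. The stretch between them, chr18:48055501-50250000, has 4389 windows without an undetermined base, of which 627 were predicted to be listed. By number of windows it ranks 5 among the stretches without a listed window on the autosomes. It holds 259 windows with 10 or more CpG sites. Of these, 216 have 10 to 19 CpG sites, a class of which 45.7% of autosomal windows were in the table. None of them is listed, since the stretch is defined by having no listed window. Unique sequence was as frequent as on the whole arm, with 88.3% against 87.6% of windows.

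Other genes that lie wholly inside this stretch have no listed window by its definition, so that their counts only describe what it holds. MAPK4, an atypical MAP kinase, had 0 of 343 windows with 81.1 predicted. ME2, the mitochondrial malic enzyme, had 0 of 150 with 20.3 predicted. ELAC1, which processes the 3′ end of tRNA, had 0 of 40 with 6.07 predicted. MEX3C, an RNA-binding ubiquitin ligase, had 0 of 87 with 13.4 predicted, and MRO had 0 of 61 with 14.7 predicted. ENSG00000267699, annotated across ELAC1 and SMAD4, shares their windows. SKA1, a kinetochore protein, lies just before the stretch and had 0 of 38 with 5.72 predicted.

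DCC was nearly empty along its whole length of 1196 kb. It had 4 listed windows of 2392, with 238.2 predicted, a ratio of 0.0168. They start at 50250001, 50319001, 51043501 and 51044001, with 3, 2, 7 and 4 CpG sites, and the third of them is not unique in sequence. The window that holds its start has 23 CpG sites and a predicted share of 56.9%, and was absent, as were all 6 windows of its promoter. Between 50319501 and 51043500, inside the gene, lies a further stretch of 1448 windows without a listed one, which ranks 33 on the autosomes. From 48 to 51 Mb only 3 of 6000 windows were in the table, with 782 predicted. The 8 genes that start there all start inside the stretch around SMAD4, which is defined by having no listed window. That 0 of these 8 had a listed window in the promoter follows from that definition and is no separate result.

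**Figure D3:**
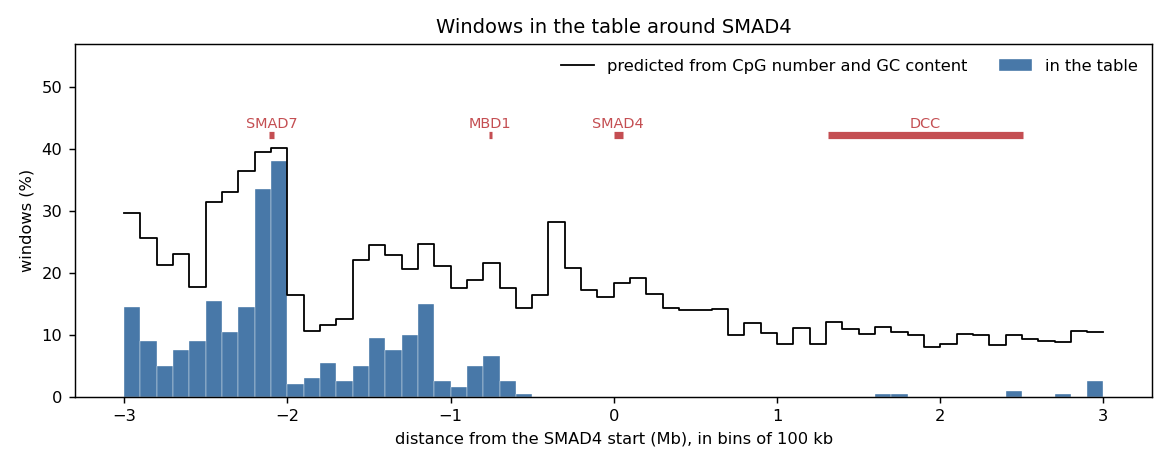
Share of windows in the table (bars, in percent) and predicted share (black line) in bins of 100 kb, by distance from the start of SMAD4. Red bars mark gene bodies; the listing is close to the prediction at SMAD7, falls before SMAD4, and stays near 0 across SMAD4 and DCC.

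The 3 SMAD genes of the arm differed within a few Mb. SMAD2, a receptor-activated SMAD, had 30 listed windows of 244 with 29.6 predicted, a ratio of 1.01. SMAD7, an inhibitory SMAD, had 25 of 63 with 25.8 predicted, a ratio of 0.969. SMAD4 had none. In the promoter, SMAD2 had 2 of 6 windows in the table, and SMAD7 and SMAD4 had 0 of 6.

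By number of windows without an undetermined base, the longest stretch of the autosomes without a listed window also lies on 18q. It runs over 4.09 Mb, chr18:63437501-67532000, with 8189 windows of which 732 were predicted to be listed. It is poor in CpG, with a mean of 3.19 sites per window, but has 305 windows with 10 or more sites, and 91.3% of its windows have unique sequences. It holds CDH19 (0 of 206 windows, 14.1 predicted), DSEL (0 of 20, 3.28 predicted), TMX3 (0 of 83, 10.1 predicted), CCDC102B (0 of 680, 61.5 predicted) and DOK6 (0 of 897, 92.9 predicted). That these genes have no listed window follows from the definition of the stretch. CDH19 is a cadherin of the nerve sheath, and DOK6 an adaptor of receptor tyrosine kinases in neurons. CDH7 and CD226, which encodes a receptor of T and NK cells, lie across its ends, and the 4 listed windows of CDH7 all lie before it. A stretch of 1176 windows, chr18:75191001-75829500, overlaps no protein-coding gene, with 229 predicted and none listed. The next in length, chr18:23113501-23556500, has 886 windows and overlaps no protein-coding gene either. On 18p the longest stretch spans 403 kb. Of the 25 autosomal stretches of at least 1 Mb, 2 lie on 18q. Stretches were continued across gaps of the assembly, and lengths in kb and Mb include the undetermined bases inside them.

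BCL2 was sparsely listed but not empty. Its gene body had 11 listed windows of 394, with 84.3 predicted, a ratio of 0.131 (95% interval of the listed share 1.57 to 4.93%, predicted 21.4%). With 50 kb on each side the ratio was 0.187 and with 500 kb 0.236. The window of its start, with 55 CpG sites and a predicted share of 32.4%, was absent, and 2 of 6 promoter windows were present, the nearest beginning 0.999 kb upstream. Of the other genes of cell death and survival, MALT1, an activator of NF-κB, had 4 of 166 windows with 25.7 predicted, PHLPP1, a phosphatase of AKT, had 27 of 529 with 79.9 predicted, and TNFRSF11A, the receptor RANK, had 18 of 132 with 35.1 predicted. PMAIP1, the BH3-only protein NOXA, is short and had 2 of 9 windows with 1.71 predicted. The median ratio of these 5 genes was 0.338, against 0.427 for the 200 protein-coding genes of the arm.

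Adhesion genes of the arm ranged from above the prediction to none listed. The 7 desmosomal cadherins, which form the adhesive core of desmosomes, lie side by side from 28569331 to 29128971 and had 102 listed windows of 585 with 67.7 predicted. Of them 6 had a ratio over 1, with a median of 1.57. Of all genes of 18q 23.5% had a ratio over 1 (median 0.427), and 10538 of 19168 autosomal genes did (median 1.10). DSC2 had 26 of 87 windows with 9.80 predicted, DSC3 had 22 of 107 with 10.6 predicted, and DSG2 had 18 of 102 with 14.3 predicted. DSG1 had 2 of 82 with 9.41 predicted. The 95% interval of the listed share lay above the predicted share for DSC2 and DSC3, below it for DSG1, and included it for the other 4. DSC2 and DSC3 each had 5 of 6 promoter windows in the table, DSG2 and DSG3 3 of 6, DSG1 1 of 6, and DSC1 and DSG4 0 of 6. CDH2 (N-cadherin) had 62 of 490 windows with 52.6 predicted, a ratio of 1.18. The other classical cadherins, further along the arm, were sparse: CDH20 had 2 of 445 with 57.6 predicted, CDH7 4 of 280 with 25.5 predicted, and CDH19 none. All share the arm, and neighbouring genes are not independent of each other.

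The serpin cluster near BCL2 was sparsely listed. Its 10 genes had 16 listed windows of 656 with 82.1 predicted, and 9 of the 10 had a ratio under 0.5, with a median of 0.209, against 54.5% of all genes of 18q and 22.1% of autosomal genes. SERPINB5 (maspin) had 0 of 57 windows with 10.6 predicted, and SERPINB8 had 2 of 99 with 15.9 predicted. SERPINB2, the plasminogen activator inhibitor PAI-2, had 2 of 64 with 7.19 predicted. SERPINB3 and SERPINB4 encode the squamous cell carcinoma antigens and are near copies of each other. Unique windows made up 23.1% and 28.6% of their bodies, so that their counts, 1 of 13 and 0 of 14, are uncertain with reads that had to map uniquely. Gene bodies of this cluster overlap in part, and a window was counted for each gene that holds it. Pooled over the 10 genes the ratio was 0.195. It was 0.197 in the whole 1 Mb bin that holds them and 0.253 from 51 to 63 Mb. The low listing was thus not particular to the serpin genes.

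The transcription factors covered nearly the whole range of ratios. NFATC1, near the end of the arm, had 136 of 267 windows with 135 predicted, ZNF516 had 108 of 275 with 94.7 predicted, and SALL3 12 of 45 with 10.3 predicted. TCF4, a bHLH factor that binds E-boxes, had 11 of 885 with 110 predicted, and ONECUT2 had 4 of 112 with 23.2 predicted. SETBP1 had 78 of 777 with 127 predicted, TSHZ1 29 of 159 with 45.1 predicted, and RAX 3 of 14 with 4.59 predicted. The median ratio of the 10 factors was 0.648.

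Genes that read the methylation state of DNA also differed. CXXC1, which binds unmethylated CpG, had 9 of 11 windows in the table with 6.44 predicted. MBD1, its neighbour, had 3 of 29 with 9.19 predicted, and 5 of 6 windows of its promoter were listed. That promoter lies largely within CXXC1, so that these windows are in part the same. MBD2 had 9 of 146 with 21.3 predicted and no promoter window. MBD1 and MBD2 bind methylated CpG.

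Of the neural and hormone genes, MBP (myelin basic protein) had 163 of 309 windows with 110 predicted, a ratio of 1.48, and holds the second longest run of listed windows of the arm, 26 windows over 13 kb. CELF4, an RNA-binding protein of neurons, had 228 of 646 with 232 predicted. NETO1, a subunit of kainate receptors, had 20 of 252 with 32.9 predicted. GALR1, a galanin receptor, had 5 of 56 with 11.8 predicted, and MC4R, the melanocortin receptor of appetite control, had 0 of 3. ATP8B1, a lipid flippase, had 38 of 314 windows with 68.7 predicted, NEDD4L, a ubiquitin ligase of sodium channels, had 97 of 715 with 164 predicted, and LIPG, endothelial lipase, had 6 of 77 with 21.4 predicted.

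Over all 200 protein-coding genes of the arm, 109 had a ratio under 0.5 in the gene body, or 54.5%, against 22.1% of 19168 autosomal genes. The median ratio was 0.427 on the arm and 1.10 on the autosomes. No listed window at all was found in 27 genes of the arm (13.5%) and in 9.30% of autosomal genes. Of genes of at least 50 kb, 111 on the arm, the highest ratios were those of C18orf25 (71 of 187 windows, ratio 2.07), DSC3 (2.07), NPC1 (1.82), TTC39C (94 of 286, 1.70) and ANKRD29 (48 of 128, 1.58). DOK6, MAPK4, CCDC102B, ENSG00000267699 and ME2, all at 0, had the most predicted windows among the 7 such genes without a listed one. Those 7 were 6.31% of the genes of this length on the arm, against 1.23% of 6522 on the autosomes. NPC1, TTC39C and ANKRD29 lie before 22 Mb.

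The longest run of consecutive listed windows on 18q had 35 windows, chr18:20673001-20690500, outside protein-coding genes, and on 18p 20 windows. Of its windows 65.7% had unique sequences. Of the 5 longest runs, 4 lie before 22 Mb, and ANKRD29 holds that with 15 windows.

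Promoters of the arm were listed less often than those of 18p. A window of the table lay in the 3000 bp upstream of the start in 99 of 200 genes of 18q (49.5%, 95% interval 42.6 to 56.4), in 49 of 66 genes of 18p (74.2%) and in 75.9% of 19229 autosomal genes. Between 51 and 63 Mb the share was 16 of 50, and beyond 67 Mb 20 of 33. Just downstream of start sites, from 0 to 500 bp, 14 of 200 windows were listed (7%, predicted 30.5%, ratio 0.230), while 25.3% were on all autosomes (predicted 35.6%, ratio 0.709). From 1000 to 1500 bp downstream the ratio on 18q was 1.28, and from 1500 to 1000 bp upstream 1.17, against 1.47 and 1.53 on the autosomes. On the arm the windows with the highest mean CpG number, 39.6 sites, were thus those with the lowest ratio around start sites. Gene bodies were listed more than the rest of the arm, with ratios of 0.596 and 0.390, and on the autosomes these were 1.13 and 0.857.

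The low listing of 18q was found in each class of CpG number. With 0 to 4 CpG sites 3.41% of windows were in the table against 8.20% on the autosomes, with 5 to 9 sites 12.4% against 27.1%, with 10 to 19 sites 21.3% against 45.7%, with 20 to 39 sites 24.6% against 48.5%, and with 40 or more 11.9% against 29.4%. The listed share rose with CpG number up to 39 sites and was lower beyond, as on the autosomes. Before 22 Mb the listed share also rose at first, from 16.0% with 0 to 4 sites to 47.9% with 10 to 19. It was 41.8% with 20 to 39 sites, over 67 windows, and 21.4% with 40 or more. The interval for 20 to 39 sites, 30.7 to 53.7%, includes the share for 10 to 19. The ratio there fell from 1.76 for 0 to 4 sites to 1.00 for 20 to 39 and 0.689 for 40 or more, the last over 42 windows. Listed windows of 18q had a mean of 7.81 CpG sites and the other windows of the arm 4.09. Unique windows were more frequent on 18q (87.6%) than in the sample of other autosomal windows (79.9%), and 7.02% of unique and 7.72% of the other windows of 18q were listed.

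**Figure D4:**
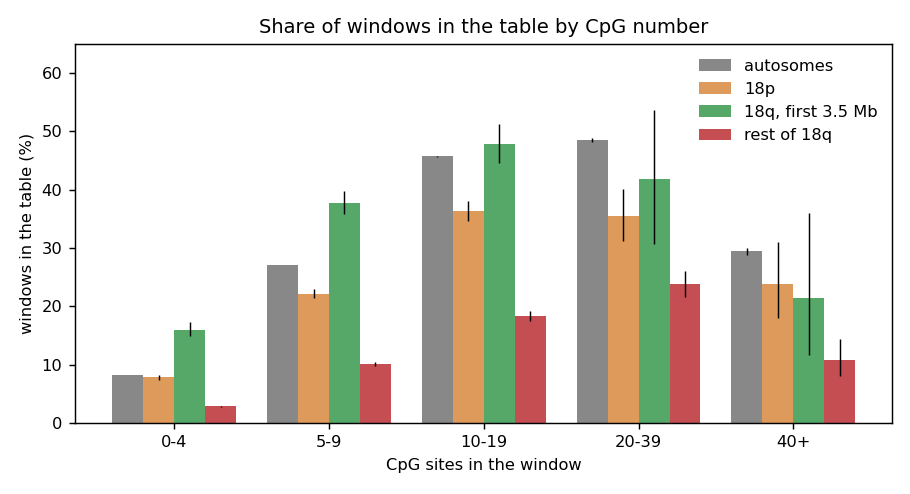
Share of windows in the table (in percent) by the number of CpG sites in the window, for all autosomes, 18p, the first 3.5 Mb of 18q and the rest of 18q. Error bars are 95% Wilson intervals; in every class the rest of 18q is lowest.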

How the data were processed

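Genomic DNA of FADU cells was enriched and sequenced in 4 libraries, 1 per condition. The authors mapped single-end reads of 50 bases to hg19 with Bowtie 0.12.7 (version per the labels), kept unique and monoclonal reads and counted them in windows of 500 bp with MEDIPS. The deposited table gives the position of each window and 4 columns of values without sample names, which were not used. The methods give only a minimum number of reads per sample, so that the depth of each library is not known here. The rule that kept a window in the table is not given in the sources used here, though its file name hints at a read minimum.

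Windows were laid on GRCh37, which has the coordinates of hg19 on the autosomes, and 5368882 autosomal windows without an undetermined base were the background. A window is called listed when it is in the table. The predicted share was the share listed among autosomal windows of equal CpG number (those with 40 or more pooled) and of the same class of GC bases in steps of 25. Genes were taken from GENCODE version 44 lifted to GRCh37. Windows were assigned by midpoint, starts were those of canonical transcripts, and promoters were 3000 bp upstream. Bins of 1 Mb needed 500 windows. Unique windows were those whose 5 sampled sequences of 50 bases each had 1 exact match in the genome, on all windows of 18q and on 10000 of each autosome. The genes named were those of fixed lists, the 5 highest and lowest of at least 50 kb, and those in the 5 longest stretches and runs. SKA1, outside this rule, was chosen after their values were seen. The arm and the lists were chosen with earlier results of these data known. The edges at 22, 48, 51, 63 and 67 Mb belong to no planned result and lie where the listing changes along the arm. A simulated listing with known factors for 18q and 18p served only to check the computation of the ratios. Its windows were drawn independently from the predicted shares themselves. It therefore cannot show how the ratios behave where adjacent windows are alike. Python 3.11.15, NumPy 2.4.6, pandas 2.3.3, Numba 0.67.0 and Matplotlib 3.10.9 were used.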

Additional observations from a re-analysis of the deposited data

How the results depend on the processing

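The ratio of listed to predicted windows on 18q, 0.479, stayed below 1 in all 8 alternatives. It was 0.451 with the prediction from CpG number alone, 0.404 with no prediction, 0.437 over windows with unique sequences and 0.459 over windows more than 5000 bp from start sites. In alternatives chosen after seeing the data it was 0.517 without the 1 Mb bins with at most 2 listed windows and 0.400 without the windows before 22 Mb. Outside 18q, uniqueness was known only for 10000 windows of each autosome. Of the unique windows in that sample 20.6% were listed, against 17.6% of all autosomal windows. The 0.437 is therefore not to be read as an effect of uniqueness alone. The ratio of 18q to 18p, 0.550, was 0.459 with no prediction. The other 18 alternatives stayed within the interval of the value or within 1.5 times the count. The alternative without repeats was not run, since the reference marks none. No paired analysis was possible because the columns of values carry no sample, and for the same reason no library could be left out. Without the values of the libraries, a window absent from the table may still have had reads.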
